A study of Homo sapiens with 6 samples.

Results

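YAP1, WWTR1, TEAD1, TEAD2, TEAD3, TEAD4, CCN1, CCN2, ANKRD1 and LATS2 were examined in A2780 cells, an ovarian carcinoma line, with (KO) and without (WT) loss of CDK12. These 10 genes of the YAP/TAZ and TEAD transcription module were chosen by name out of the 60483 genes listed, CCN1 and CCN2 being the present symbols of CYR61 and CTGF, and all 10 were found by Ensembl identifier and passed the filter on low counts, among 16198 genes tested. CCN1, CCN2 and ANKRD1, the classical targets of the module, were nearly lost in KO cells, and TEAD1 was 4.75-fold lower, whereas YAP1 itself was only slightly lower.

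RNA was sequenced in 3 libraries of parental A2780 cells, which carry unedited CDK12, and in 3 libraries of A2780 cells with the CDK12 KO genotype. KO cells come from CRISPR/Cas9 editing of exon 1 and are 1 clone, obtained by transfecting a heterozygous clone again, so that what belongs to the clone and what belongs to the loss of CDK12 cannot be told apart. Compared with parental cells, the paper reports a higher DNA content and chromosome number and slower growth of this clone. Their part in the RNA levels below was not tested. Cells of both groups grew in RPMI medium with serum, and the labels name no treatment. The labels do not say whether libraries of a group came from separate cultures, and p-values therefore measure the spread between libraries, which may be technical.

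YAP1 and TAZ, the product of WWTR1, are coactivators that do not bind DNA themselves and reach their target genes through the TEAD transcription factors. The Hippo kinases LATS1 and LATS2 phosphorylate both coactivators, which keeps them in the cytoplasm or marks them for degradation. Contact between cells, attachment to the matrix and tension of the actin cytoskeleton set this switch, and CCN1, CCN2 and ANKRD1 are the genes most often used to read it out. LATS2 is at once an inhibitory kinase and a target gene of the module, a negative feedback. Counts measure RNA, so phosphorylation and location of YAP and TAZ were not seen here.

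TEAD factors recognise the letters GGAATG, and the sequences before the start sites of the genes in which these letters were found are shown for that reason. Sequences were available from RefSeq (GRCh38.p14) for 7 of the 10 genes, namely YAP1, WWTR1, TEAD2, TEAD3, CCN2, ANKRD1 and LATS2. In the 250 bases before the start, GGAATG occurred on either strand in 3 of the 7, as against 4175 of all 35116 promoters of the table (11.9%). WWTR1 and TEAD2 had more than a single promoter each, all without a match, so a count per gene is set here beside a share per promoter. CCN2 held 3 matches, starting 169, 104 and 95 bases before the start site, a number reached by 29 promoters (0.0826%). ANKRD1 held 2 matches, 220 and 128 bases before the start, and 2 or more were found in 330 promoters (0.94%). YAP1 held 1, 162 bases before the start. A match is a description of the letters and not of binding. The sequences follow 5′ to 3′ on the strand of the gene with the matches in capitals, for CCN2 at chr6:131951373-131951622 (minus strand), for ANKRD1 at chr10:90921088-90921337 (minus strand) and for YAP1 at chr11:102110197-102110446 (plus strand).
CCN2: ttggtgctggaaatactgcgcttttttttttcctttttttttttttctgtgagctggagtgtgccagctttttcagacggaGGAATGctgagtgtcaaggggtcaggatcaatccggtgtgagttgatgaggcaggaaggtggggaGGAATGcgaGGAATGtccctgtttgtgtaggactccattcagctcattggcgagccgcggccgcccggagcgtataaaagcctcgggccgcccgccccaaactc
ANKRD1: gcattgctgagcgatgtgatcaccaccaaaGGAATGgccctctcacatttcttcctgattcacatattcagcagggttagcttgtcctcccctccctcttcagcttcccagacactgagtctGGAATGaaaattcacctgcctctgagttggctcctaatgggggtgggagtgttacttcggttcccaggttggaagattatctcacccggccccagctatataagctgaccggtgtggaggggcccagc
YAP1: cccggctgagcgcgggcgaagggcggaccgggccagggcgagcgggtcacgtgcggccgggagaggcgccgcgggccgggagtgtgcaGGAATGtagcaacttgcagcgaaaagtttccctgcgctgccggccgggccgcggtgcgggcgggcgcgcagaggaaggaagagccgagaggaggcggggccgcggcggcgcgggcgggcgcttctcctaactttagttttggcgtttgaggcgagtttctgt

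Total counts per library lay between 11098400 and 30899045, WT replicate 3 being the smallest. Levels are given as CPM, counts divided by the library total after edgeR's TMM scaling and set to a common depth. CDK12 RNA stood at 115 ± 11.1 CPM (SD, n = 3) in the parental cells and at 98.0 ± 4.64 CPM in the KO clone, which does not separate edited from unedited transcripts. Of the ovarian carcinoma markers, KRT8, KRT18 and EPCAM were detected, while PAX8, WT1, MUC16 and EMX2 had at most 6 counts in any library and were not tested. The 7 fibroblast markers summed to between 11100 and 11500 CPM in WT and between 8540 and 8820 CPM in KO, mainly COL1A2 and COL3A1. In WT, COL1A1 and PDGFRA stood at 629 and 90.7 CPM. PDGFRB, DCN and LUM were low there, at 7.35, 0.757 and 0.613 CPM. None of the 5 blood markers passed the filter, and of the 4 endothelial ones only VWF did, at 0.192 CPM in WT and 0.704 CPM in KO.

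To be called up- or down-regulated, a gene needed an adjusted p below 0.05 in edgeR's quasi-likelihood test together with a log2 fold change (KO against WT) above 1 or below -1. By this rule 4 of the 10 genes were down-regulated, TEAD1, CCN1, CCN2 and ANKRD1, and none was up-regulated, as compared with 7.73% of all tested genes down-regulated, 8.30% up-regulated and 16.0% either. By the adjusted p alone, 8 of the 10 fell and 1 rose, against 32.0% and 31.9% of all tested genes and 63.9% in either direction. The groups did not overlap for 9 of the 10, 8 with KO below WT (33.5% of all tested genes) and 1 with KO above WT (32.8%), against 66.4% in either direction. Over the 10 genes the log2 fold change had a median of -0.81, and over all tested genes of 0.00. The 10 genes were chosen with earlier results of these data known, so these counts describe them and are no independent test. ANKRD1, without counts in KO, and CCN2, with 10, 10 and 5 counts there, passed the low-count filter through WT alone. Both could only come out lower.

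**Figure D1:**
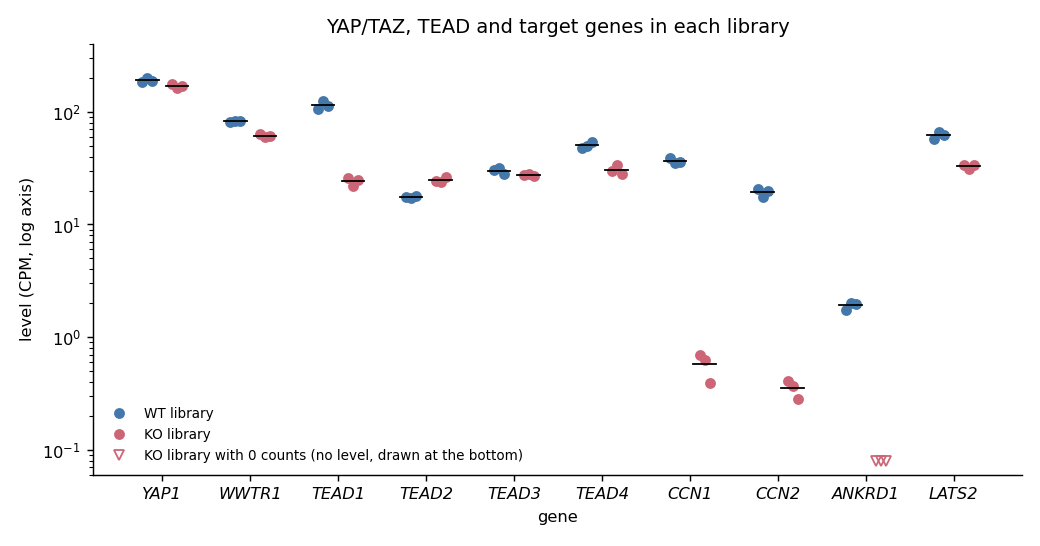
Level in CPM (log axis) of each of the 10 genes in the 3 WT (blue) and 3 KO (red) libraries, with the group mean as a line. CCN1 and CCN2 lie between 17.5 and 39.2 CPM in WT and below 0.7 CPM in KO, and ANKRD1, drawn as open triangles, has 0 counts in all 3 KO libraries.

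CCN1 encodes a secreted matricellular protein that binds integrins and acts on adhesion and migration. It lies on chromosome 1 from 85580761 to 85584589 (GRCh38, plus strand). WT libraries held 1074, 1050 and 397 counts of CCN1, and KO libraries 17, 17 and 7. These counts correspond to 39.2, 35.0 and 35.7 CPM in WT and 0.692, 0.631 and 0.393 CPM in KO, so the KO libraries were all far below the lowest WT library. CCN1 fell 61.6-fold (log2 fold change -5.94, standard error, SE, 0.132, adjusted p = 8.08e-28, edgeR), and ranked 201 from the lowest of the 16198 tested genes.

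CCN2, connective tissue growth factor, is the closest relative of CCN1 in this set and is known for its part in fibrosis. It lies on chromosome 6 from 131948176 to 131951372 on the minus strand. Its levels were 20.7, 17.5 and 19.9 CPM in WT and 0.407, 0.371 and 0.281 CPM in KO, from 10, 10 and 5 counts in the KO libraries. The groups were again far apart, and CCN2 fell 52.6-fold (log2 fold change -5.72, SE 0.167, adjusted p = 2.02e-24, edgeR). CCN2 passed the low-count filter through WT alone, so its direction was fixed by the filter. There were between 1.8 and 2.0 counts of CCN1 for each count of CCN2 in the WT libraries and between 1.4 and 1.7 in the KO libraries. Since few reads remained in KO, this last ratio rests on small numbers.

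ANKRD1, an ankyrin repeat protein best known from stressed heart muscle, is on chromosome 10 from 90912096 to 90921087 (minus strand). It was low in WT, with 48, 60 and 22 counts or 1.75, 2.00 and 1.98 CPM, and had 0 counts in each KO library. Measured against the highest level that 3 counts would give in a KO library, 0.169 CPM, ANKRD1 was at least 11.3-fold lower in KO (adjusted p = 8.65e-13, edgeR). This bound covers counting error only, and the size of the decrease beyond it was not detectable at this depth. ANKRD1 passed the low-count filter through WT alone, so its direction was fixed by the filter. Length-scaled, CCN1, CCN2 and ANKRD1 together made 19.3 ± 1.17 CPM per kb of exons in WT and 0.306 ± 0.0704 in KO (SD, n = 3 each).

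TEAD1, one of 4 genes for the DNA-binding partners, fell with the targets. It lies on chromosome 11 from 12674421 to 12944737. Its levels were 106, 125 and 112 CPM in WT and 25.9, 21.8 and 24.8 CPM in KO. All KO libraries were far below all WT libraries, a 4.75-fold decrease (log2 fold change -2.25, SE 0.067, adjusted p = 3.34e-24, edgeR).

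TEAD4, on chromosome 12, fell less than TEAD1. Its levels were 48.2, 49.3 and 53.8 CPM in the WT libraries, then 30.0, 33.7 and 27.9 CPM in the KO libraries, without overlap of the groups. Its log2 fold change was -0.71 (SE 0.066, adjusted p = 4.83e-11, edgeR), a 1.63-fold decrease under the fold threshold. TEAD2, on chromosome 19, was the only one of the 10 genes that rose, from 17.7, 17.3 and 17.9 CPM in WT to 24.1, 24.0 and 26.4 CPM in KO. All KO libraries were above all WT libraries, and the log2 fold change was 0.49 (SE 0.0715, adjusted p = 3.91e-07, edgeR). TEAD3, on chromosome 6, stood at 30.3, 31.4 and 27.8 CPM in the WT libraries and at 27.3, 28.2 and 27.0 CPM in the KO libraries. Here the groups overlapped, and the log2 fold change of -0.13 had a 95% interval of -0.26 to 0.00 (adjusted p = 0.0787, edgeR).

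**Figure D2:**
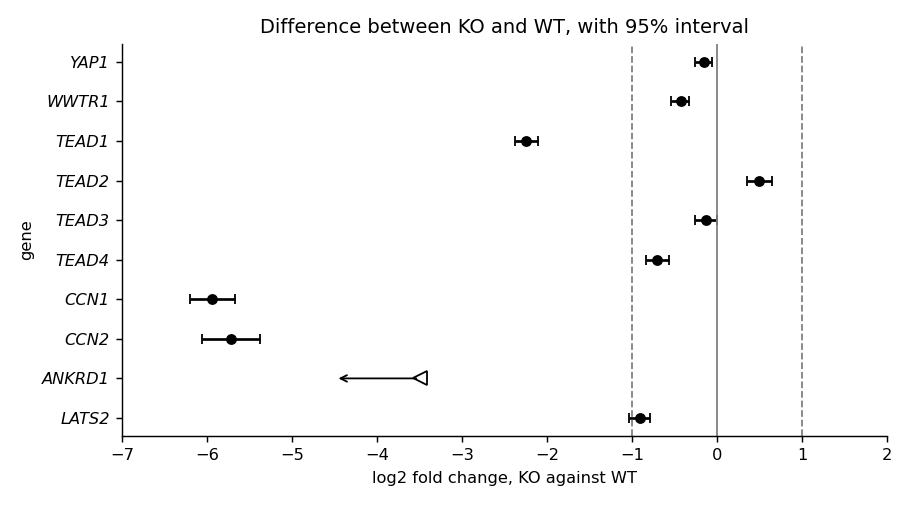
Log2 fold change of KO against WT for each gene, with the 95% interval of edgeR's fit, where dashed lines mark the fold threshold of 1. CCN1 and CCN2 lie near -6 and TEAD1 at -2.25; ANKRD1 is drawn as an open triangle at its bound of -3.50 with an arrow, since all KO libraries had 0 counts.

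The makeup of the TEAD family was compared per length, as CPM divided by the kilobases of merged exons in the annotation. These values depend on which transcripts are used, which gene counts do not show. The 4 TEAD genes summed to 46.9, 49.5 and 49.2 CPM per kb in the WT libraries and to 32.6, 34.2 and 32.3 in the KO libraries. Every KO library was below every WT library, and the summed level in KO was 0.68 of that in WT (two-sided exact permutation test, p = 0.1, which no comparison of 3 libraries with 3 can go below). TEAD4 was the most abundant member in both groups, with 45.7 ± 2.14% of the sum in WT and 40.6 ± 2.72% in KO (SD, n = 3 each). TEAD1 made up 22.0 ± 1.43% of it in WT and 6.86 ± 0.78% in KO, the lowest share of any TEAD gene in KO. TEAD2 went the other way, from 12.2 ± 0.454% to 25.3 ± 1.96%, and TEAD3 had 20.2 ± 1.42% and 27.3 ± 0.197%. For each of the 4 shares the groups did not overlap (exact permutation test, two-sided, p = 0.1). Shares of a sum depend on each other, so these 4 are not separate results. The TEAD3 share was higher in KO although its own level was 9.79 CPM per kb in WT and 9.01 in KO.

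The coactivators moved little in comparison. YAP1, on chromosome 11 from 102110447 to 102233424 and thus on the same chromosome as TEAD1 but not near it, reached 185, 198 and 189 CPM in the WT libraries and 178, 162 and 171 CPM in the KO libraries. The highest KO library was just below the lowest WT library, and the log2 fold change was -0.16 (SE 0.049, 95% interval -0.26 to -0.06, adjusted p = 0.00411, edgeR). WWTR1, on chromosome 3 from 149517235 to 149736714, reached 80.4, 83.7 and 82.3 CPM in the WT libraries and 62.9, 59.3 and 60.4 CPM in the KO libraries. It fell by 0.43 on the log2 scale (SE 0.0517, adjusted p = 1.01e-08, edgeR), a 1.35-fold decrease with clearly separate groups. Per length there were between 3.04 and 3.13 YAP1 for each WWTR1 in the WT libraries and between 3.62 and 3.75 in the KO libraries (exact permutation test, two-sided, p = 0.1).

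**Figure D3:**
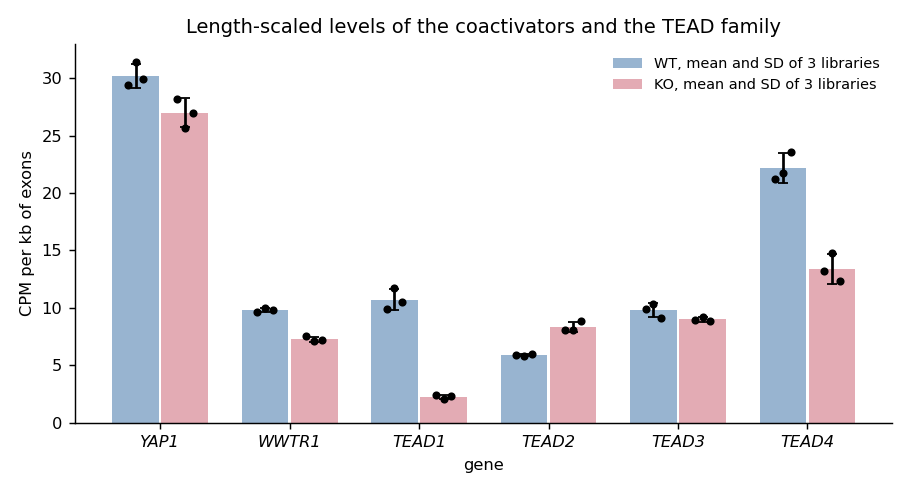
Length-scaled levels (CPM per kb of exons, linear axis from 0) of the coactivators YAP1 and WWTR1 and of TEAD1 to TEAD4, as bars for the mean and SD of 3 libraries, with each library as a point. YAP1 stays near 30, with 30.2 in WT and 27.0 in KO, while TEAD1 goes from 10.7 to 2.26 and TEAD2 from 5.91 to 8.33.

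LATS2, the kinase that is also a target, lies on chromosome 13 from 20973036 to 21061586. The WT libraries gave 57.1, 65.6 and 62.7 CPM and the KO libraries 33.5, 31.0 and 34.0 CPM, without overlap. LATS2 fell 1.88-fold (log2 fold change -0.91, SE 0.0619, 95% interval -1.04 to -0.79, adjusted p = 1.77e-14, edgeR) and was, of the 10 genes, the one closest to the fold threshold without passing it. Its paralog LATS1, which is not counted among the targets, was at 65.9 ± 1.65 CPM (SD, n = 3) in WT cells and 67.4 ± 5.14 CPM in KO cells, with a log2 fold change of 0.03 and a 95% interval of -0.09 to 0.14 (adjusted p = 0.706, edgeR).

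Ordered by length-scaled level, WT cells had YAP1 first at 30.2 CPM per kb, TEAD4 next at 22.2, and then LATS2, TEAD1, CCN1, WWTR1 and TEAD3 between 11.0 and 9.79, whose libraries overlapped each other in this order. CCN2 at 8.28, TEAD2 at 5.91 and ANKRD1 at 1.07 followed without overlap. In KO cells YAP1 and TEAD4 still led, at 27.0 and 13.4, followed by TEAD3, TEAD2, WWTR1 and LATS2 between 9.01 and 5.85 and by TEAD1 at 2.26. CCN1 and CCN2 came after these at 0.155 and 0.151 CPM per kb, with overlapping libraries. In WT, then, CCN1 RNA stood at the level of WWTR1 and TEAD3, and in KO it was far below all coactivators and TEAD genes.

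The other genes of the pathway were read from lists written by hand, with earlier results of these data known. Of the 6 remaining genes of the Hippo kinase core, all tested, none passed the fold threshold. By the adjusted p alone 2 of the 6 fell, near the 32.0% of all tested genes. These were STK4, an upstream kinase, and MOB1A, a LATS cofactor, with log2 fold changes of -0.62 and -0.36 (adjusted p = 2.25e-11 and 1.9e-07, edgeR). STK3, SAV1, MOB1B and LATS1 did not pass, with log2 fold changes between -0.02 and 0.07. The median of the list was 0.00. Of 31 tested upstream regulators and scaffolds (of 32 listed), 10 fell and 8 rose by the adjusted p alone, against the 32.0% and 31.9% above. Only AJUBA, a LIM protein that binds and restrains LATS kinases, passed the fold threshold, with a decrease from 72.8 ± 5.78 to 12.4 ± 1.28 CPM (SD, n = 3 each; log2 fold change -2.53, adjusted p = 1.9e-24, edgeR).

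The VGLL proteins are cofactors that bind TEAD factors at a surface overlapping that of YAP. VGLL1 and VGLL2 had at most 1 count in any library and were not tested. VGLL3 had 88, 86 and 28 counts in the WT libraries and 906, 806 and 619 in the KO libraries and rose 11.5-fold, from 2.87 ± 0.345 to 33.9 ± 3.55 CPM (log2 fold change 3.52, SE 0.106, adjusted p = 4.19e-24, edgeR). All KO libraries were far above all WT libraries. VGLL4, which competes with YAP for TEAD binding, rose less, from 49.5 ± 1.56 to 63.8 ± 4.05 CPM (log2 fold change 0.37, adjusted p = 1.35e-06, edgeR). Of the pair, VGLL3 had the larger log2 fold change, opposite in sign to that of TEAD1.

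A list of 18 further genes used as YAP/TAZ targets was uneven. Of the 16 tested, 5 were down-regulated past both thresholds and none was up-regulated, and by the adjusted p alone 8 fell and 5 rose, with a median log2 fold change of -0.38. Over all tested genes the shares were 7.73% and 8.30% past both thresholds and 32.0% and 31.9% by the adjusted p alone, so that the 5 that rose are near the share of all genes. MYOF, a membrane repair protein, went from 1190, 1437 and 507 counts in WT to 6, 6 and 9 counts in KO, a 148-fold decrease (log2 fold change -7.21, adjusted p = 3.02e-29, edgeR). TGFB2, a ligand of the TGF-beta family, had 539, 597 and 233 counts in WT and at most 1 in a KO library, at least 120-fold lower. It passed the low-count filter through WT alone, so it could only come out lower. AMOTL2, an angiomotin that binds YAP and is induced by it, fell 11.9-fold, from 77.7 ± 4.45 to 6.52 ± 0.888 CPM (adjusted p = 9.49e-28, edgeR). IGFBP3 and NUAK2 were low in both groups, at 1.02 and 1.64 CPM in WT, and fell, with log2 fold changes of -2.29 and -2.01 (adjusted p = 5.27e-06 and 3.05e-07, edgeR). MYOF, IGFBP3 and NUAK2 also passed the low-count filter through WT alone, which fixed their direction. Of the 5 down-regulated genes, only AMOTL2 had enough counts in both groups. In the other direction, DOCK5, GADD45A, CCDC80, AXL and ASAP1 rose under the fold threshold, with log2 fold changes of 0.89, 0.34, 0.23, 0.21 and 0.15. AXL, a receptor tyrosine kinase, was at 76.4 ± 0.643 CPM in WT cells and 88.3 ± 3.9 CPM in KO cells. Of the 13 genes of this list found in the promoter table, 6 held GGAATG before the start, AMOTL2, NUAK2 and TGFB2 among the 5 down-regulated ones and also AXL, FOXF2 and PTPN14, which were not down-regulated past both thresholds. The letters were in 11.9% of all promoters, a share per promoter and not per gene. Per gene found in that table, they were also in 5 of 14 of a list for the transcription factor SRF and 6 of 23 upstream regulators. The same count was 2 of 3 for relatives of the targets, 1 of 4 for VGLL genes, 1 of 9 for a TGF-beta list and 0 of 5 for the kinase core.

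**Figure D4:**
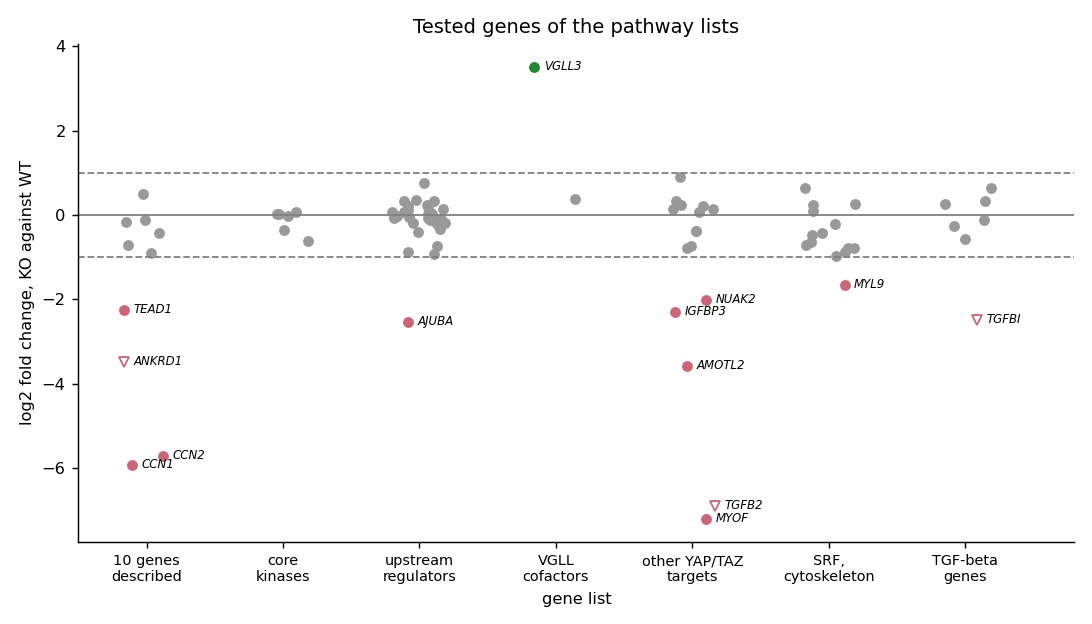
Log2 fold change of KO against WT for each tested gene of the 10 described and of 6 lists, with genes past both thresholds in red (down) or green (up) and named; open triangles are bounds for genes with at most 3 counts in each KO library. The core kinases stay between -1 and 1, while MYOF and TGFB2 lie lower than CCN1 and CCN2, and VGLL3 is the gene above 3.

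CCN1, CCN2 and ANKRD1 are known to answer to other pathways as well, above all to SRF, the transcription factor coupled to actin, and to TGF-beta. Of 14 tested genes of an SRF and cytoskeleton list (of 16), 10 fell and 2 rose by the adjusted p alone, against 32.0% and 31.9% of all tested genes, with a median log2 fold change of -0.56, but only MYL9, a myosin light chain, passed the fold threshold (from 104 ± 2.82 to 32.9 ± 1.13 CPM, SD, n = 3 each; log2 fold change -1.66, adjusted p = 5.22e-23, edgeR). SRF itself and FLNA, filamin A, fell with log2 fold changes of -0.87 and -0.98. CNN2, VCL, TPM1, TPM2, FHL2 and CALD1 fell with values between -0.79 and -0.42, and MRTFA with -0.21. TAGLN and MRTFB rose by 0.64 and 0.27 (adjusted p = 3.84e-06 and 0.000584, edgeR), and ACTA2 and ZYX did not pass. Of 7 tested genes of a TGF-beta list (of 9), 3 fell and 3 rose by the adjusted p alone, near the 32.0% and 31.9% of all tested genes, with a median of -0.11, and only TGFBI passed the fold threshold. TGFBI had 27, 26 and 11 counts in WT and 0 in KO and was at least 5.62-fold lower. Its direction was fixed, since it passed the low-count filter through WT alone. SKIL and PMEPA1 fell with log2 fold changes of -0.57 and -0.27, and CDKN1A, ID1 and TGFB1 rose with 0.34, 0.27 and 0.63. SMAD7 did not pass (log2 fold change -0.11, adjusted p = 0.375, edgeR). In the same libraries 5 of the 7 fibroblast markers fell past both thresholds, against 7.73% of all tested genes. Among them were COL1A1 and PDGFRA, with log2 fold changes of -2.37 and -2.63. DCN and LUM, also among them and low in WT, were at 0 in KO, and COL3A1 did not pass (log2 fold change -0.01). DCN and LUM passed the low-count filter through WT alone, so these 2 could only come out lower. The part of these markers in the decrease of CCN1 and CCN2 was not tested. In bulk RNA, fewer cells that express a gene and less RNA per cell cannot be told apart.

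The relatives of the targets, of the CCN and ankyrin repeat families, were low. CCN3, CCN4, CCN5 and CCN6 had at most 7 counts in any library and were not tested. ANKRD2, of the same protein family as ANKRD1, had at most 1 count in a WT library and 17, 16 and 19 counts in the KO libraries, at least 2.9-fold higher (adjusted p = 9.63e-08, edgeR), and ANKRD23 did not pass (log2 fold change 0.34, adjusted p = 0.14, edgeR). ANKRD2 passed the low-count filter through KO alone, so it could only come out higher. All of these stayed under 2 CPM on average in both groups.

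Genes around each of the 10 were compared next. The 3 tested protein-coding genes on either side gave 60 neighbours, of which 12 were down-regulated and 2 up-regulated past both thresholds, against the 7.73% and 8.30% of all tested genes. None of the 6 neighbours of CCN1 passed both thresholds, and their log2 fold changes lay between -0.50 and 0.91; DDAH1, which lies next to CCN1, rose. The same held for ANKRD1, with neighbours between -0.10 and 0.74, for LATS2, with neighbours between -0.23 and 0.25, and for TEAD3 and TEAD4. At these 5 genes, no neighbour was down-regulated past both thresholds.

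For the other genes the surroundings differed. On the far side of CCN2 from ENPP1, MOXD1, STX7 and SLC18B1 were all down-regulated, STX7 with a 2.00-fold decrease at the threshold and MOXD1 at least 6.48-fold lower, whereas ENPP1, MED23 and AKAP7 were not. TEAD1 had DKK3, a secreted Wnt modulator, with a log2 fold change of -4.04 and BMAL1, a clock factor, with 1.20, but MICAL2 between DKK3 and TEAD1 did not pass, with 0.08 (adjusted p = 0.465, edgeR). WWTR1 lies beside TM4SF1, TM4SF18 and CP. TM4SF1, a tetraspanin-like membrane protein 140 kb away, went from 755 to 0.291 CPM, TM4SF18 was at least 78.2-fold lower and CP at least 126-fold lower, while COMMD2 and PFN2 on the other side of WWTR1 fell less, with log2 fold changes of -0.49 and -0.33, and RNF13 between them did not pass (-0.06, adjusted p = 0.401, edgeR). TEAD2 rose in a stretch where 5 of its 6 neighbours were down-regulated, TRPM4, DKKL1, GFY and SLC17A7 with log2 fold changes between -1.49 and -1.04. HRC, the other, had 3, 3 and 1 counts in the KO libraries and a fitted log2 fold change of -3.0 (SE 0.431). DKKL1 overlaps TEAD2 on the opposite strand and had between 21 and 97 counts a library. Around YAP1, BIRC3, BIRC2 and TMEM123 on one side fell, with log2 fold changes of -0.72, -0.42 and -0.47, and ARHGAP42 on the other rose from 0.142 to 1.32 CPM. MOXD1, TM4SF1, TM4SF18, CP and HRC passed the low-count filter through WT alone, and ARHGAP42 through KO alone, which fixed their directions.

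The genes most like CCN1 and CCN2 over the 6 libraries were found by the root mean square difference of centred log2 CPM values, computed with a prior count of 2, which mainly reflects the size of the step between WT and KO. Nearest to CCN1 were ALDH1A1 with a difference of 0.133, COL16A1 with 0.147 and TPM3P9 with 0.153, the last a relative of TPM3 whose reads may be shared. Nearest to CCN2 were SALL4 with 0.106, NXN with 0.112 and ZIC1 with 0.144. CCN1 and CCN2 differed from each other by 0.205 on this scale. COL16A1, a collagen, fell 59.4-fold, SALL4, a stem cell factor, 40.2-fold, and ALDH1A1, an aldehyde dehydrogenase, was at least 43.6-fold lower.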

How the data were processed

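RNA-Seq libraries of A2780 WT and A2780 CDK12 KO cells (3 each) were stranded single-end libraries with reads of 75 bp. The authors deposited raw counts per Ensembl gene, made per the paper's methods with FastQC, STAR against GRCh38 and HTSeq-Count; versions, annotation release, strand setting and the handling of multi-mapping reads are not given in the sources used here. Groups were taken from the genotype label.

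Identifiers without version were matched to GENCODE release 44, which held 56321 of the 60483 genes (93.1%) and gave positions and merged exon lengths. The test of KO against WT was run by edgeR 4.0.16 under R 4.3.3 (filterByExpr with minimum count 10 and minimum total 15, TMM, quasi-likelihood test, two-sided, Benjamini-Hochberg over 16198 genes). Where no library of a group exceeded 3 counts, the group was set to the highest level that 3 counts give in it, and the fold is then a bound for counting error. Such a gene passed the low-count filter through the other group alone, which fixed its direction. For HRC, whose KO counts reached 3, that level is no bound, and the fitted value is given. CCN2, MYOF, IGFBP3, NUAK2, TM4SF1 and ZIC1, with more than 3 counts in a KO library, also passed the filter through WT alone. ARHGAP42 and VWF, with more than 3 counts in a WT library, passed it through KO alone. Intervals are 95% from the same fit. Alternatives were limma-voom (limma 3.58.1), which the paper used, DESeq2 1.42.0, other scalings, filters, call rules and depth, and omission of each library. On simulated counts for KO against WT, edgeR recovered 192 of 200 genes changed 3-fold among 15903 tested, with 1 false call. The simulation gave every gene the same dispersion and changed only these 200 genes, whereas 63.9% of tested genes passed the adjusted p in the data. It therefore does not give the rate of false calls in the data.

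The genes, the lists and the naming rule (all 10 genes, list genes and neighbours past both thresholds, and the 3 most like CCN1 and CCN2) were chosen with earlier results of these data known; list genes under the fold threshold, LATS1 and the markers were named after their values were seen. A gene of the TGF-beta list is not reported here and was left out of its counts. Other steps used pandas 2.3.3, numpy 2.4.6 and matplotlib 3.10.9 under Python 3.11.15.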

Additional observations from a re-analysis of the deposited data

How the results depend on the processing

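No paired analysis was possible because samples are numbered 1 to 6 through both groups, so that WT and KO share no number. Over 12 or 13 alternatives for each gene, the direction of all 10 log2 fold changes was kept, and so was the side of the adjusted p of 0.05, with 1 exception: without WT replicate 3, TEAD3 had a log2 fold change of -0.17 and an adjusted p of 0.0415, and over its alternatives the log2 fold change lay between -0.17 and -0.10 and the adjusted p between 0.0415 and 0.259. CCN1 lay between -6.09 and -5.79, CCN2 between -5.82 and -5.46, TEAD1 between -2.31 and -2.17 and LATS2 between -0.98 and -0.86. The fitted value of ANKRD1 ranged from -8.58 (without WT replicate 3) to -6.45 (limma-voom). The number of the 10 genes down-regulated past both thresholds changed in 2 settings. With at least 10 counts in every library it was 1, because CCN1, CCN2 and ANKRD1 were no longer tested, and with the adjusted p alone it was 8, with 1 higher.

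Among the lists, the adjusted p alone gave 2 genes of the kinase core lower, 10 upstream regulators lower and 8 higher, 2 VGLL cofactors higher, 8 further targets lower and 5 higher, 10 SRF genes lower and 2 higher, and 3 TGF-beta genes lower and 3 higher. With at least 10 counts in every library, 1 further target and 0 TGF-beta genes were lower and 0 relatives of the targets higher, again because genes at a few counts in one group dropped out. Without a filter, 2 relatives were higher (CCN4 added), 2 SRF genes lower (CNN1 added) and 2 TGF-beta genes lower (LTBP2 added), and in libraries thinned to 11098400 counts 0 relatives were higher, 0 TGF-beta genes lower and 4 further targets lower, since ANKRD2, TGFBI and IGFBP3 were no longer tested at this depth. Leaving out 1 library gave 1 to 2 upstream regulators lower (DCHS1 added without WT replicate 1 or KO replicate 1) and 0 to 1 higher (FAT4 added without WT replicate 2). It gave 2 to 2 SRF genes lower in each of the 6 fits, against 1 with all libraries, the second being FLNA without WT replicate 1 or WT replicate 3 and CNN1 otherwise.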
